A study of Mus musculus with 32 samples.

Results

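The 40 genes described here carry out DNA replication or cell division. They were chosen by function, as a fixed list of symbols, with earlier results of these data already known. There were 18 S-phase members and 22 mitotic members among the 20109 gene symbols shared by 4 deposited tables. All 40 were listed in every table, and all 40 passed the filter used for testing, a mean normalized read count of 10 or more. The study concerns Ddr1, a receptor tyrosine kinase activated by collagen, in E0771, a mouse mammary tumour cell line. Messenger RNA was sequenced in 32 libraries from 8 groups. The cultured cells were 3 wild-type lines, named E0771-P, EV and Ctrl (replicates 1, 2 and 3), and 2 DDR1 KO lines, named 3-6 and 3-7 (replicates 1 and 2). Tumours of E0771 DDR1 WT cells (5 libraries) and E0771 DDR1 KO cells (5 libraries) were taken from Rag1-/- hosts, mice that lack mature T and B cells. A further set came from C57BL/6 hosts at day 4, with 4 wild-type and 5 knockout tumours, which the design text describes as transferred there out of Rag1-/- animals. The last set came from C57BL/6 hosts at day 6, with 4 tumours under IgG treatment and 4 under hDDR1 ECD antibody treatment. The labels do not say which knockout line was used in the mice, give no age or time for the Rag1-/- hosts, and give no Ddr1 genotype at day 6. They do not say that replicates are separate animals or cultures, so the p-values measure the spread between these libraries.

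S-phase genes are switched on as a cell commits to division. E2F1 and E2F8 are transcription factors of the E2F family, and CCNE2 is a cyclin of the G1 to S transition. CDC6 and CDT1 load the MCM helicase onto DNA, and PCNA, GINS2 and CDC45 act at the fork. TYMS, TK1, RRM1 and RRM2 supply nucleotides. The mitotic genes are transcribed later, in G2 and M: CCNB1, CCNB2, CCNA2 and CDK1 form the kinase that starts mitosis, PLK1, AURKA and AURKB are mitotic kinases, BUB1, BUB1B and TTK serve the spindle checkpoint, and CDC20 activates the ubiquitin ligase that ends it. Many S-phase promoters hold E2F sites, and many G2/M promoters hold CCAAT boxes and a cell cycle genes homology region (CHR), the element read by the DREAM and MuvB complexes.

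The promoters are shown first because the S-phase and mitotic members differ in these elements. RefSeq promoters on GRCm38.p6, running from 250 bases before the start site to 50 after it, matched 33 of the 40 members. A CHR core (TTTGAA or TTCGAA, either strand) lay in 14 of 18 mitotic promoters (77.8%), in 4 of 15 S-phase promoters (26.7%) and in 19.2% of all 32851 promoters of the same length. An E2F core (TTCCCGC or else TTGGCGC or else TTCGCGC or else TTGCCGC, either strand) lay in 3 of the mitotic promoters (16.7%), in 9 of the S-phase promoters (60.0%) and in 9.57% of all promoters. A CCAAT box, on either strand, lay in 88.9% of mitotic, 66.7% of S-phase and 37.4% of all promoters. These matches are a description of the letters and not evidence of binding. The 120-base windows below are examples of the 2 kinds, and parts of each promoter lie outside them. Cdk1 is among the 3 mitotic promoters with an E2F core. Its E2F cores, at -178 to -172 and at -130 to -124, lie before the window printed. In the mitotic pair, capitals mark CHR cores and CCAAT boxes, the latter read as ATTGG on the other strand. In the S-phase trio, capitals mark E2F cores only, and overlapping matches are joined. The Mcm6 and Mcm5 windows also hold CCAAT boxes, left in lower case. Cdc20 lies on the minus strand at chr4:118437344-118437463, Cdk1 on the minus strand at chr10:69352913-69353032, and Mcm6 on the minus strand at chr1:128359706-128359825, each ending at the base before its start site. Mcm5 lies on the plus strand at chr8:75109329-75109448 and Cdc6 on the plus strand at chr11:98907971-98908090, each from 180 to 61 bases before the start.
Cdc20: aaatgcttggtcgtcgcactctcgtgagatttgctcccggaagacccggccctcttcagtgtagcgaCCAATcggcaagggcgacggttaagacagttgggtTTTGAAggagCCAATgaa
Cdk1: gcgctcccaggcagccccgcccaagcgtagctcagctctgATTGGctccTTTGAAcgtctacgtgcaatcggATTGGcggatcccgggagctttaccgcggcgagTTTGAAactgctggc
Mcm6: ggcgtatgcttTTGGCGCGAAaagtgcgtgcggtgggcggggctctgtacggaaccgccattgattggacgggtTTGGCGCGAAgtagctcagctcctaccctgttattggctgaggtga
Mcm5: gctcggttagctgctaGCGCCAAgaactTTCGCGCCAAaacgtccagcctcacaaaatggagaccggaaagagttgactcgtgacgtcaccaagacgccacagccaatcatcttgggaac
Cdc6: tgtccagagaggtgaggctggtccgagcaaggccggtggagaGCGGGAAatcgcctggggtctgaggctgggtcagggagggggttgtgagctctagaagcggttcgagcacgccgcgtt

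Levels below are RPM, reads scaled to the library total, from whole reads recovered from the deposited values, and tests were run on the deposited normalized counts. Total reads per library spanned 29270919 to 37425032 for cultured cells, 18967300 to 25516204 for tumours of Rag1-/- mice, 20148955 to 28600639 for day 4 tumours and 20220028 to 39732635 for day 6 tumours. Ddr1, the targeted gene, read 178, 171 and 213 RPM in the wild-type lines and 26.7 and 19.0 RPM in the knockout lines. It spanned 174 to 189 against 33.3 to 42.3 RPM in Rag1-/- hosts, and 132 to 175 against 27.9 to 49.7 RPM at day 4. The log2 changes were -3.03 (SE 0.16), -2.34 (SE 0.06) and -2.23 (SE 0.19), with limma adjusted p of 0.0041, 3.877e-11 and 0.0037. At day 6 it was 15.9 to 22.1 RPM under IgG and 18.5 to 28.5 RPM under antibody, near the knockout levels of the other tables. Tables were normalized separately, so levels were not tested across them.

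The members took a larger share of reads in cultured cells than in tumours. The 18 S-phase members summed to 3057 to 3376 RPM in cultured cells, and to 2233 to 2375 RPM in tumours of Rag1-/- mice. At day 4 they summed to 1308 to 2233 RPM, and at day 6 to 1834 to 2248 RPM. The 22 mitotic members summed, in the same order of settings, to 5558 to 7263, 3747 to 4306, 1523 to 3095 and 2323 to 3300 RPM. From culture to the Rag1-/- hosts, wild-type mean RPM had a median ratio of 0.728 over S-phase members and 0.643 over mitotic members. From culture to day 4, the median ratios were 0.585 and 0.351, and all 22 mitotic members had a lower mean at day 4. Mki67, which encodes the proliferation antigen Ki-67, had the lowest of these ratios, 0.165. Pcna, the sliding clamp of replication, went the other way at 1.30. E2f1 was nearly level, at 67.2 RPM in wild-type culture, 73.8 in Rag1-/- hosts and 62.9 at day 4. Tumour libraries hold host cells too: macrophage markers summed to 15.9 to 53.1 RPM in culture and 1468 to 4125 RPM at day 4, and fibroblast markers to 176 to 919 and 3459 to 16840 RPM. Fewer dividing cells and less of these RNAs per cell cannot be told apart in such samples. Ribosomal Rn45s is listed only in the day 4 and day 6 tables, where it took up to 49542 RPM of a library.

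Per kilobase of exon, Top2a, the topoisomerase that untangles sister DNA, led in culture at 154 RPKM ± 13.1 (SD, n = 3) in wild-type cells. Ccna2, cyclin A2, led in wild-type tumours, at 115 RPKM ± 6.78 (SD, n = 5) in Rag1-/- hosts and 48.6 RPKM ± 12.7 (SD, n = 4) at day 4. Cdc20 and then Tpx2, a spindle assembly factor gene, followed it in both of these wild-type tumour groups. Ttk, Tyms and Cdc6 were the 3 lowest members in each of the 8 groups, for example Ttk at 2.04 RPKM ± 0.620 (SD, n = 4) in day 4 wild-type tumours. Exon length here is the union of exons over all annotated transcripts of a gene, not the length of 1 transcript. These ranks depend on it, for example on 6089 exon bases for Tyms.

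**Figure D1:**
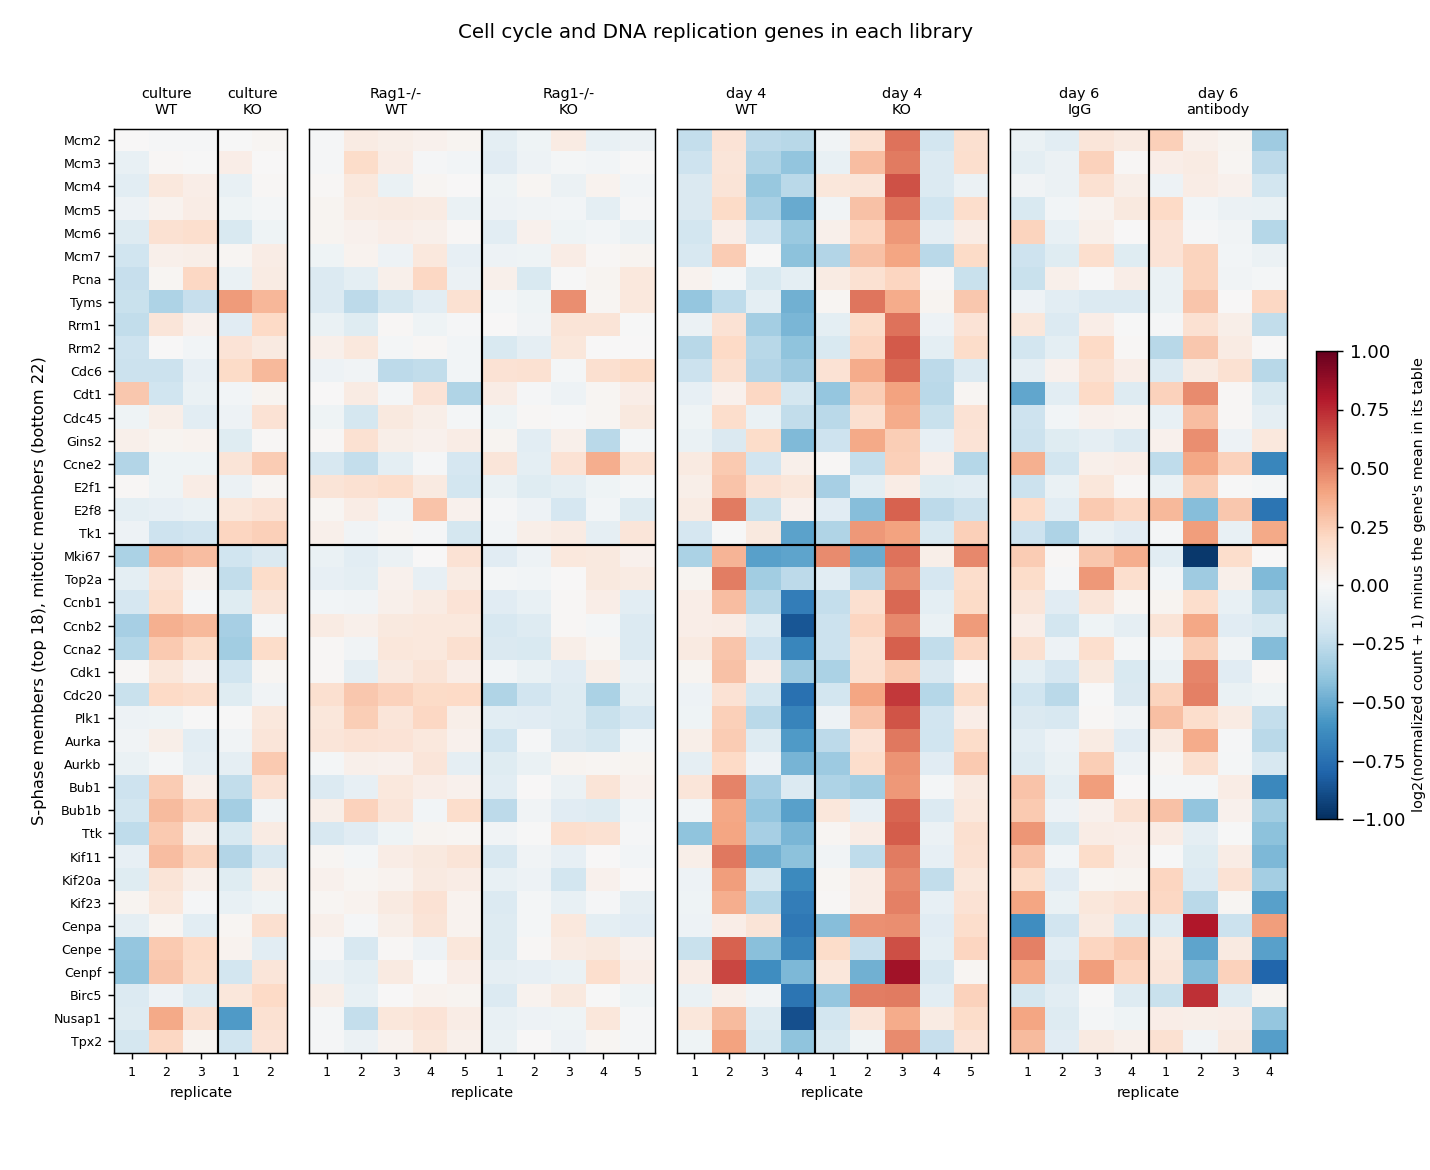
Heat map of the 40 members (rows) in 32 libraries (columns, by table, group and replicate), coloured by log2(normalized count + 1) minus the mean of that gene in its table. Day 4 knockout replicate 3 is the highest of its table for 31 of 40 members, day 4 wild-type replicate 4 the lowest for 28, and colours are palest in Rag1-/- hosts.

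The libraries were not equally tight. The median SD of a member within a group, on the log2 scale, over S-phase or mitotic members, was 0.069 to 0.087 for tumours of Rag1-/- mice, 0.222 to 0.403 for day 4 tumours and 0.122 to 0.271 for day 6 tumours. Cenpf, a kinetochore protein gene, had the largest SD in both day 4 groups (0.581 in wild type and 0.489 in knockout). The scatter was also related to exon length in single libraries. The Spearman correlation between a member's deviation from its group mean and its exon length, across the 40 members of 1 library, ran from -0.417 to 0.412 at day 4, from -0.545 to 0.474 at day 6 and from -0.329 to 0.556 for tumours of Rag1-/- mice. Over all genes with a length it ran from -0.474 to 0.409, from -0.433 to 0.447 and from -0.233 to 0.161. The value of 0.556, in Rag1-/- wild-type replicate 5, was the highest of the 32 libraries for the members, beside 0.109 for all genes there. In the heat map, day 6 antibody replicate 2 has Mki67, Cenpe and Cenpf, among the longest members, below every IgG library, and Birc5 above every other day 6 library. These genes were picked after their values were seen. Rrm1, longer than Mki67 at 11012 exon bases, had day 6 group means of 275 RPM under IgG and 272 RPM under antibody.

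In Rag1-/- hosts, 6 of the 22 mitotic members fell in knockout tumours and none rose, while 2 of the 18 S-phase members rose and none fell. The mitotic genes were Cdc20, Plk1, Aurka, Ccnb2, Bub1b and Kif23, and the S-phase genes were Ccne2 and Cdc6. Together 8 of 40 (20.0%) passed the test, limma with Benjamini-Hochberg adjustment over all genes at an adjusted p under 0.05. Of all 12795 genes tested, 22.7% passed, 11.3% higher and 11.4% lower, so the share over the whole list was near the background. The mitotic share lower was 27.3%. The S-phase share higher was 11.1%, near the 11.3% of all genes. The median log2 change was -0.09 over mitotic members and -0.01 over S-phase members, and 0.00 over all genes. The S-phase median stood at 0.01 with quantile normalization and without wild-type replicate 4. The authors' deposited table for this comparison gives 5 of the 40 members an adjusted p under 0.05, where 11.22% of all its genes have one: Cdc20, Plk1, Aurka, Bub1b and Ccne2. Ccnb2, Kif23 and Cdc6 are not called in the authors' deposited table.

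**Figure D2:**
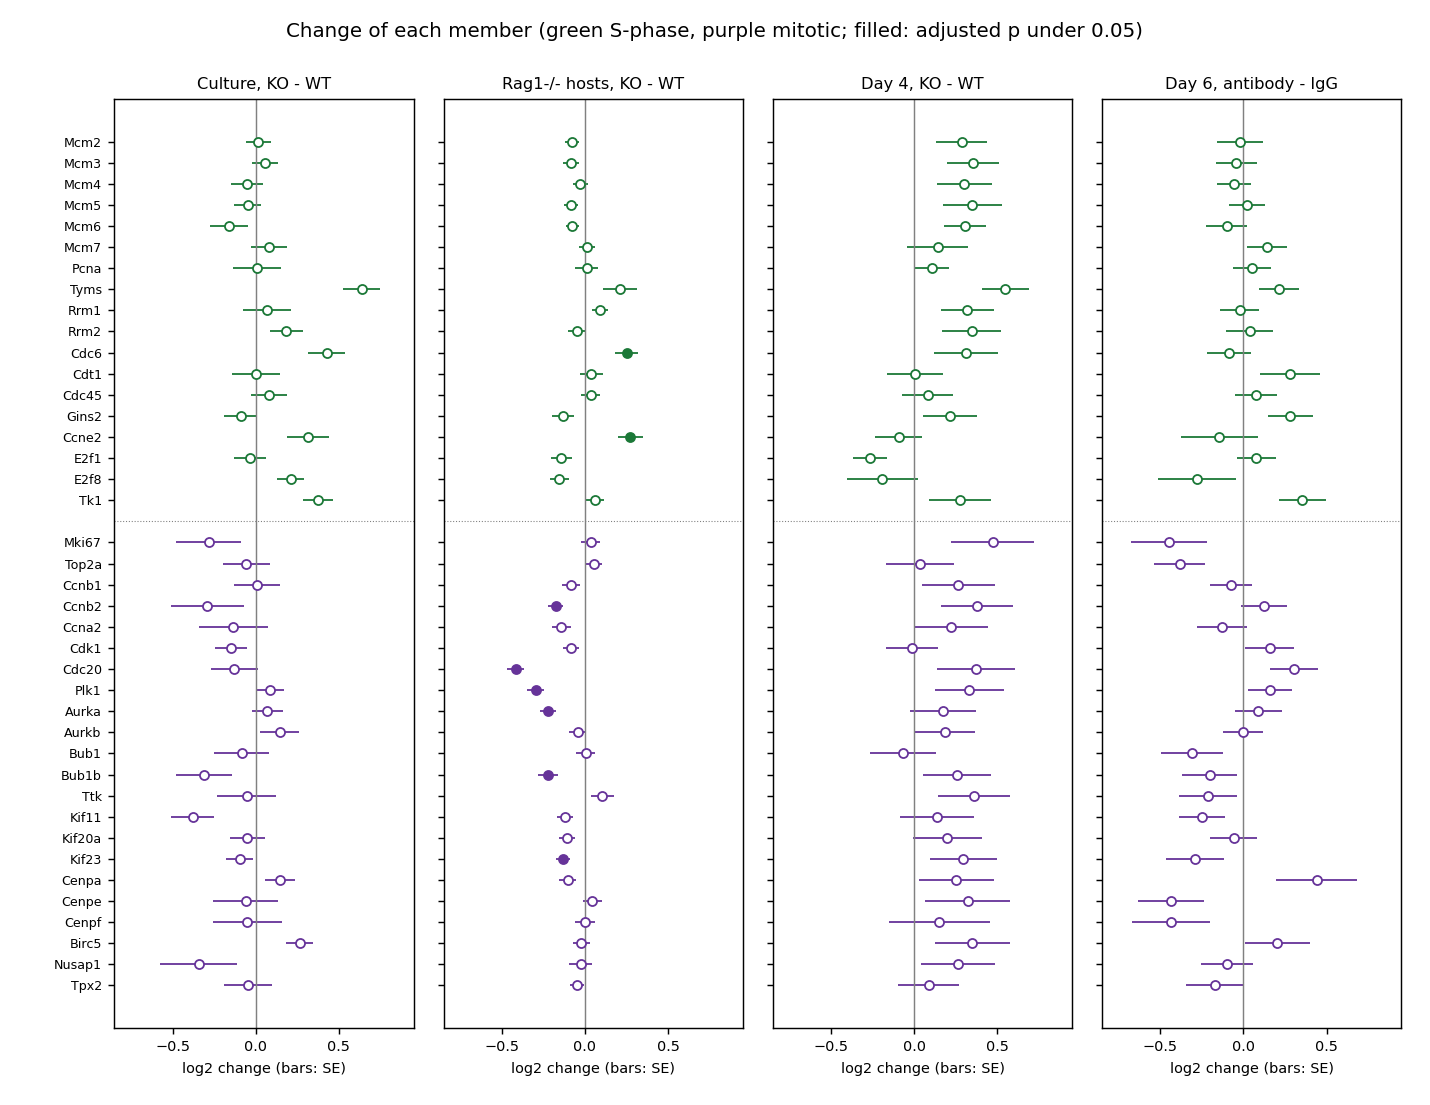
Log2 change of each member (points, SE as bars) in the 4 comparisons, S-phase members in green above and mitotic members in purple below, filled where the limma adjusted p was under 0.05. The 8 filled points are all in Rag1-/- hosts, and no point is filled in the other 3 panels.

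Cdc20, the activator of the anaphase-promoting complex, moved most among the members called. It read 148, 159, 154, 148 and 155 RPM in the 5 wild-type tumours and 109, 118, 125, 109 and 126 RPM in the 5 knockout tumours. Every knockout tumour lay below every wild-type tumour. The log2 change was -0.42 (SE 0.05, limma adjusted p = 0.00010). Cdc20, at chr4:118432901-118437352 on the minus strand of GRCm38, overlaps Elovl1, a fatty acid elongase gene on the other strand, which also fell (log2 change -0.26, SE 0.05, limma adjusted p = 0.0035). Libraries were made with a kit that marks strand, but whether counting used it is not given in the sources used here, so reads of the overlap cannot be assigned.

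Plk1, the polo-like mitotic kinase, read 76.3, 83.5, 76.0, 79.7 and 74.8 RPM in wild type and 66.4, 66.5, 66.8, 61.5 and 64.0 RPM in knockout, without overlap (log2 change -0.30, SE 0.05, limma adjusted p = 0.00098). Aurka, the centrosomal kinase that helps activate it, spanned 122 to 129 against 103 to 118 RPM (log2 change -0.22, SE 0.05, adjusted p = 0.0055), again without overlap. Cyclin B2, Ccnb2, spanned 104 to 110 against 91.4 to 106 RPM (log2 change -0.18, SE 0.05, adjusted p = 0.014). Its ranges met in RPM but not in normalized counts. Bub1b, a spindle checkpoint gene, spanned 145 to 177 against 128 to 152 RPM, with overlap (log2 change -0.22, SE 0.06, adjusted p = 0.015). Kif23, a kinesin of cytokinesis, spanned 107 to 114 against 97.1 to 106 RPM (log2 change -0.13, SE 0.04, adjusted p = 0.043). Kif23 lost its call when any library except wild-type replicate 5 was left out, and under 5 of the 10 other settings. Groups of 5 of the 22 mitotic members did not overlap, all lower in knockout, where 7.14% of all genes were lower without overlap and 7.85% higher.

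The promoters of these 6 genes all held a CHR core and a CCAAT box, and none held an E2F core. Of the other 12 mitotic promoters, 66.7% held a CHR core and 83.3% a CCAAT box, so these elements were also common among mitotic members that did not pass. The 20 to 26 bases around the CHR core nearest each start site are printed here, with the core in capitals.
Cdc20, chr4:118437346-118437371, minus strand: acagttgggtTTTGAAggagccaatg
Plk1, chr7:122159455-122159480, plus strand: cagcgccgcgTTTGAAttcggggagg
Aurka, chr2:172370523-172370548, minus strand: aaggagaaccTTTGAAttgtaacggc
Ccnb2, chr9:70421535-70421560, minus strand: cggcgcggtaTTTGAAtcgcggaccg
Bub1b, chr2:118598241-118598260, plus strand: agacgttaaaTTTGAAactt
Kif23, chr9:61946782-61946807, minus strand: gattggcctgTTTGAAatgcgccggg

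Of the S-phase members in Rag1-/- hosts, Cdc6, which loads the MCM helicase, read 24.1, 24.3, 20.6, 20.6 and 24.9 RPM in wild type and 28.0, 28.4, 25.6, 28.4 and 29.1 RPM in knockout. All 5 knockout tumours were higher (log2 change 0.25, SE 0.07, limma adjusted p = 0.021). Ccne2, cyclin E2, read 37.5, 35.3, 38.8, 40.6 and 37.9 RPM in wild type and 46.1, 40.0, 47.9, 54.7 and 47.5 RPM in knockout. Knockout replicate 2 fell below the highest wild-type tumour, and the other knockout tumours lay above all of them (log2 change 0.27, SE 0.08, limma adjusted p = 0.020). Without wild-type replicate 2 the adjusted p of Ccne2 was 0.055, and without wild-type replicate 3 that of Cdc6 was 0.053. Ccne2 overlaps Ints8 on the other strand, whose log2 change was -0.12 (SE 0.08, adjusted p = 0.34).

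The fixed examples did not pass in this comparison. Mki67 differed by 0.03 (SE 0.06, limma adjusted p = 0.70), Ccnb1 by -0.09 (SE 0.05, adjusted p = 0.27), Mcm2 by -0.08 (SE 0.04, adjusted p = 0.22), Pcna by 0.01 (SE 0.07, adjusted p = 0.92) and E2f1 by -0.14 (SE 0.06, adjusted p = 0.13), all log2. E2f1 passed when wild-type replicate 5, its lowest wild-type library, was left out (-0.21, adjusted p = 0.0061). The mean log2 level of the mitotic members was 11.6 ± 0.0422 (SD, n = 5) in wild type and 11.5 ± 0.0480 (SD, n = 5) in knockout, a difference of -0.09, and that of the S-phase members differed by 0.01. The S-phase mean minus the mitotic mean was thus 0.10 higher in knockout, and its groups overlapped. Across the 40 members the log2 change had a Spearman correlation of 0.351 with exon length, and 0.147 across all genes with a length. By this union of exons, Ccnb2, Cdc20 and Plk1 are the 3 shortest members. The part of length in these changes was not tested.

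Other genes of the pathways were taken from lists that share no gene with the members. Of 42 other mitotic genes, 10 fell in Rag1-/- knockout tumours and none rose (23.8%, against 11.4% of all genes lower; median log2 change -0.06). They included Racgap1, a cytokinesis gene (log2 change -0.25, SE 0.04, limma adjusted p = 0.00068), Cdca8 of the chromosomal passenger complex (-0.26, SE 0.04, adjusted p = 0.00074), the condensin gene Ncapd2 (-0.34, SE 0.06, adjusted p = 0.0015) and the kinesin gene Kif22 (-0.29, SE 0.06, adjusted p = 0.0033). Of 42 other replication genes, 2 rose (4.76%) and 5 fell (11.9%), with a median of 0.03; these shares were below and near those of all genes, 11.3% and 11.4%. Pold1, the catalytic subunit of DNA polymerase delta, had the largest change of the 4 named, a log2 change of -0.52 (SE 0.07, adjusted p = 0.00020), and its partner Pold2 fell by 0.35 (SE 0.06, adjusted p = 0.0013). Dut, which clears dUTP, fell by 0.29 (SE 0.07, adjusted p = 0.0076), while Pola1, the polymerase that starts each strand, rose by 0.21 (SE 0.05, adjusted p = 0.0068). Pold1 was also lower in the cultured knockout lines, at 159 and 180 RPM against 243, 269 and 283 RPM in wild type, without passing. At day 4 it differed by -0.08 (SE 0.15).

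Among 23 G1 cyclin, kinase and E2F regulator genes, 1 rose and 5 fell in Rag1-/- knockout tumours, 26.1% called against 22.7% of all genes. The log2 change was -0.35 for Ccnd3, cyclin D3 (SE 0.05, limma adjusted p = 0.00017), -0.41 for the repressor E2F gene E2f4 (SE 0.06, adjusted p = 0.00039), -0.54 for the MuvB subunit gene Lin37 (SE 0.12, adjusted p = 0.0053) and -0.28 for Myc (SE 0.06, adjusted p = 0.0062). Lin37 was also lower in the cultured knockout lines, at 9.72 and 13.9 RPM against 16.2, 16.5 and 17.4 RPM in wild type, without passing. Of 15 CDK inhibitor and antiproliferative genes 13 were tested in Rag1-/- hosts, and 3 rose (23.1%) and 2 fell (15.4%), against 11.3% and 11.4% of all genes. Cdkn1a, which encodes the CDK inhibitor p21, read 116, 129, 123, 116 and 114 RPM in wild type and 170, 173, 168, 143 and 154 RPM in knockout, without overlap (log2 change 0.39, SE 0.06, adjusted p = 0.00056). Ccng1, the cyclin G1 gene, rose by 0.26 (SE 0.07, adjusted p = 0.021). Gadd45a, a stress gene, fell by 0.43 (SE 0.08, adjusted p = 0.0026), and Cdkn2c, a CDK4 and CDK6 inhibitor gene, fell by 0.31 (SE 0.09, adjusted p = 0.021). Ccng1 lost its call without wild-type replicate 1 or 2 or knockout replicate 4 (adjusted p up to 0.056), and Cdkn2c without knockout replicate 1 or 4 (adjusted p up to 0.057). Marker sums of other cell types overlapped between the genotypes here, for instance 813 to 1017 against 777 to 1267 RPM for the 8 macrophage markers in the table and 1096 to 1839 against 968 to 1486 RPM for 9 fibroblast markers. Of these, 1 of 8 and 3 of 9 genes were called. Their part in the changes was not tested.

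**Figure D3:**
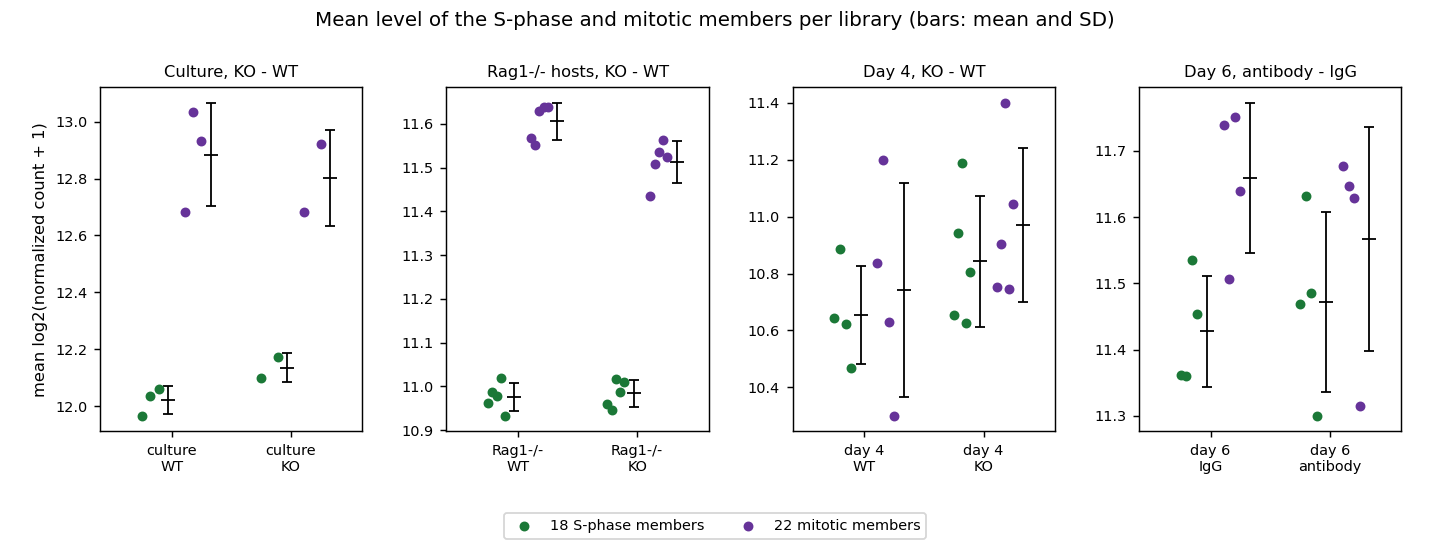
Mean log2(normalized count + 1) of the 18 S-phase members (green) and the 22 mitotic members (purple) in each library, with group mean and SD; the panels have separate axes because the tables were normalized separately. The mitotic mean is lower in Rag1-/- knockout tumours by 0.09 with ranges that meet, and the day 4 groups spread more widely than they differ.

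In culture, no member passed the test, where 0.327% of 11911 genes did (0.0168% higher and 0.311% lower); edgeR on the recovered reads also called no member. At an unadjusted p under 0.05 there were 7 of 40 members, against 18.8% of all genes. The 5 of smallest p were the S-phase genes Tyms, Tk1 and Cdc6 and the mitotic genes Birc5 and Kif11. Tyms, thymidylate synthase, read 25.01, 23.6 and 25.2 RPM in the wild-type lines and 39.2 and 36.0 RPM in the knockout lines. Both knockout lines were above all wild-type lines, with a log2 difference of 0.64 (SE 0.11, limma adjusted p = 0.059). Tk1, the salvage thymidine kinase, read 107, 96.9 and 99.2 against 129 and 129 RPM (log2 difference 0.38, SE 0.09, adjusted p = 0.099), and Cdc6 read 29.3, 29.5 and 32.7 against 38.8 and 41.7 RPM (0.43, SE 0.11, adjusted p = 0.11). Birc5, the survivin gene, differed by 0.26 (SE 0.08, adjusted p = 0.16), and the spindle motor gene Kif11 by -0.38 (SE 0.13, adjusted p = 0.19). Groups did not overlap for 8 members higher and 3 lower in knockout, 11 of 40. With only 3 and 2 lines, 36.2% of all genes did not overlap, 18.5% higher and 17.7% lower.

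DESeq2 on the recovered reads called Tyms, Tk1, Cdc6 and Birc5 higher in the knockout lines, among 473 genes higher and 582 lower of 11911. It thus called more of all genes than limma did, not only more members. The authors' deposited table gives 1 member, Tyms, an adjusted p under 0.05, where 3.67% of all its genes have one. The parental line decided much of this comparison. Mki67 read 297 RPM in E0771-P and 471 and 466 RPM in EV and Ctrl, against 322 and 327 RPM in the knockout lines (log2 difference -0.28, SE 0.20, limma adjusted p = 0.49). Without E0771-P, 6 members passed: Tyms and Tk1 were higher, and Mki67 (-0.50, adjusted p = 0.011), Kif11, Bub1b and Ccnb2 were lower. Without it 750 genes were lower and 905 higher among 11736 tested. With it 37 genes were lower and 2 higher, so the gain in calls was not particular to the members. Ccnb1, Mcm2, Pcna and E2f1 had log2 differences of 0.01, 0.02, 0.01 and -0.03, with SEs of 0.14, 0.08, 0.14 and 0.09. The S-phase mean on the log2 scale was 12.02 ± 0.0492 (SD, n = 3) in wild type and 12.14 ± 0.0521 (SD, n = 2) in knockout, with no overlap and a difference of 0.11. The mitotic mean differed by -0.08 and overlapped. Summed fibroblast markers were 176 to 238 RPM in wild type and 442 to 919 RPM in knockout, and summed mammary epithelial markers 234 to 267 and 179 to 214 RPM. No gene of either list passed, and their part in the members' values was not tested.

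Reads of Tyms are uncertain because the tables list a pseudogene, Tyms-ps. In culture it read 2.90, 3.23 and 3.34 RPM in wild type and 5.87 and 4.49 RPM in knockout (log2 difference 0.72, SE 0.22, limma adjusted p = 0.15). Tyms-ps was thus about an order of magnitude lower than Tyms in RPM and had the same direction. How reads matching both were counted is not given in the sources used here.

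**Figure D4:**
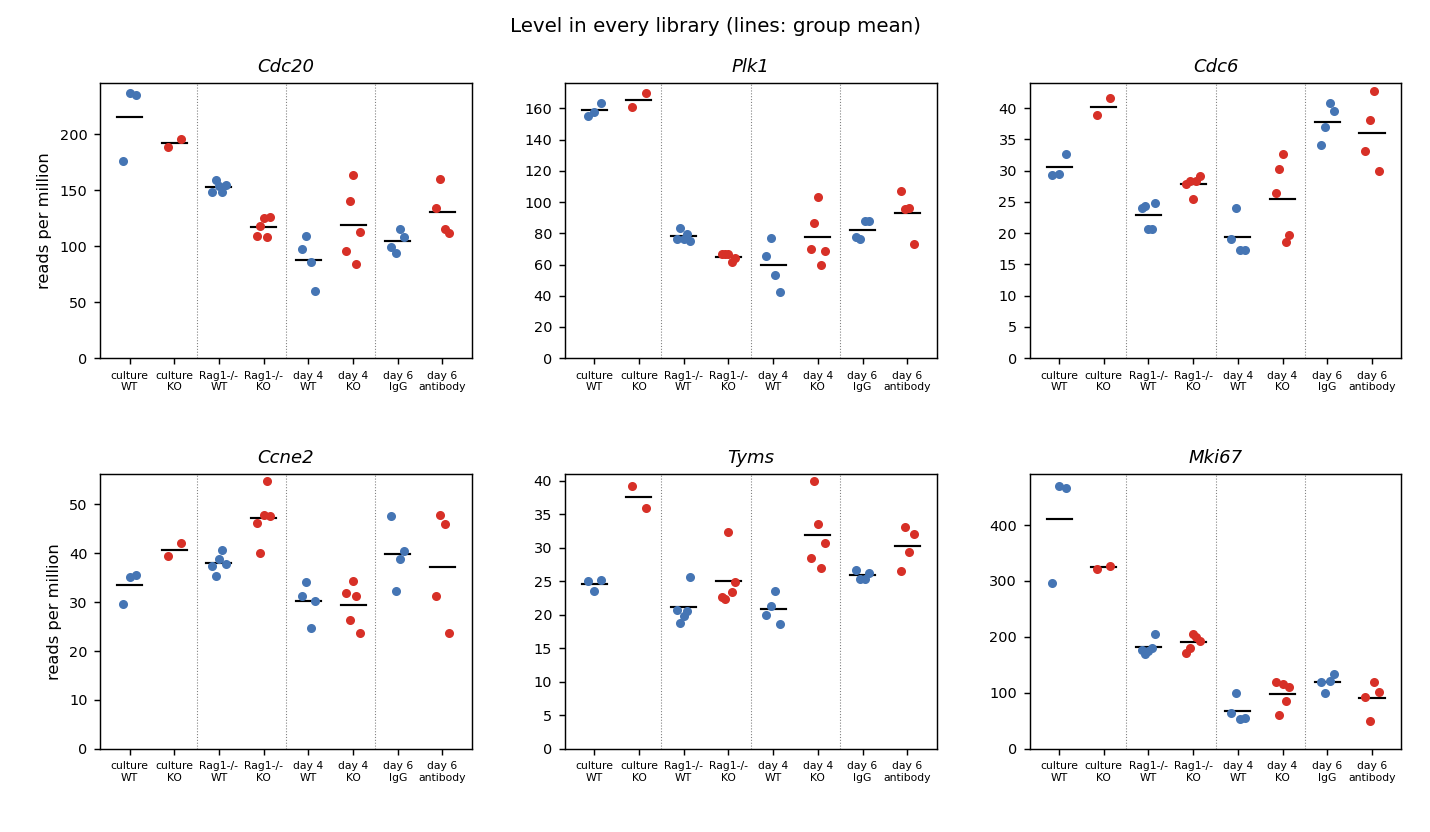
RPM of 6 members in every library (points) of the 8 groups, wild type or IgG in blue and knockout or antibody in red, with group means as lines and axes from 0. Cdc20 and Plk1 are lower in Rag1-/- knockout tumours, Tyms is higher in knockout cells of culture and day 4, and Mki67 is lower in tumours than in culture.

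At day 4 in C57BL/6 hosts, no member passed, where 0.0354% of 14105 genes did. DESeq2 on the recovered reads gave 1 member, Tyms, an adjusted p under 0.05, among 317 genes higher and 372 lower of 14105. So did the authors' deposited table, where 4.72% of all genes have one, and edgeR called no member. At an unadjusted p under 0.05 there were 4 of 40 members, where 15% of all genes were. Tyms read 19.9, 21.3, 23.5 and 18.6 RPM in the 4 wild-type tumours and 28.5, 40.0, 33.5, 27.0 and 30.8 RPM in the 5 knockout tumours. It was the only member without overlap, where 1.91% of all genes were higher without overlap, with a log2 difference of 0.55 (SE 0.14, limma adjusted p = 0.16). Tyms-ps had at most 1.12 RPM in any day 4 tumour. In Rag1-/- hosts Tyms differed by 0.21 (SE 0.10, limma adjusted p = 0.15) and at day 6 by 0.21 between antibody and IgG (SE 0.12, adjusted p = 0.52), values picked after they were seen.

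Members were mostly higher in day 4 knockout tumours without passing. The log2 difference was above 0 for 35 of 40, against 50.3% of all genes, with medians of 0.28 over S-phase and 0.26 over mitotic members and 0.00 over all genes. The helicase genes Mcm6, Mcm3 and Mcm5 differed by 0.31 (SE 0.13), 0.35 (SE 0.16) and 0.35 (SE 0.18), with limma adjusted p of 0.31, 0.33 and 0.39. Mcm6 read 140, 163, 134 and 123 RPM in wild type and 178, 196, 214, 152 and 165 RPM in knockout, with knockout replicate 4 inside the wild-type range. E2f1 went the other way at -0.27 (SE 0.10, adjusted p = 0.28), from 59.9 to 68.2 RPM in wild type and 49.3 to 60.4 RPM in knockout. Mki67 differed by 0.47 (SE 0.25, adjusted p = 0.41), Ccnb1 by 0.27 (SE 0.22, adjusted p = 0.61), Mcm2 by 0.29 (SE 0.15, adjusted p = 0.41) and Pcna by 0.10 (SE 0.11, adjusted p = 0.67).

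Single libraries weighed on this comparison. Without wild-type replicate 4, the lowest library for 28 of 40 members, the median log2 difference was 0.19 over S-phase and 0.06 over mitotic members, the largest drop in the mitotic median from leaving out 1 library. Without wild-type replicate 2 the medians were 0.36 and 0.41, and without knockout replicate 3 they were 0.18 and 0.15. Knockout replicate 3, the highest library for 31 of 40 members, also had 49542 RPM of Rn45s, where the other day 4 libraries had 2733 to 13046, and 647 RPM of keratinocyte markers, where the others had 37.0 to 87.7. Knockout replicate 5 held the most skeletal muscle marker RNA, 2766 RPM of a range that began at 6.60. Leaving out knockout replicate 5 alone gave medians of 0.26 and 0.24. Without knockout replicates 3 and 5 together the median log2 difference was 0.15 over S-phase and 0.10 over mitotic members, and none passed. Tyms then differed by 0.50 (SE 0.17, limma adjusted p = 0.14). Fibroblast markers summed to 3459 to 12980 RPM in wild type and 4193 to 16840 in knockout, and endothelial markers to 73.2 to 314 and 243 to 946. Summed keratinocyte markers (37.0 to 69.5 against 76.2 to 647 RPM) and red blood cell markers (2.02 to 5.85 against 11.9 to 78.2 RPM) did not overlap between genotypes. The part of other cell types in the members' levels was not tested.

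The other lists at day 4 held no gene that passed. Of 42 other replication genes 39 were above 0 (median 0.23), of 42 other mitotic genes 39 (median 0.24), and of 23 G1 cyclin, kinase and E2F regulator genes 7 (median -0.11). Of the 15 CDK inhibitor and antiproliferative genes 6 were above 0 (median -0.35). In a simulation on this table, limma recovered 6% of genes changed 1.5-fold and 83% of genes changed 3.0-fold, against 92% and 100% in the Rag1-/- table. Each simulation changed 100 genes per fold, all with a mean of 100 or more, and drew noise independently for each gene and library. Recovery with other numbers of changed genes, or with noise shared across genes, was not tested.

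At day 6, no member passed between antibody and IgG, and none of the 14155 genes did (0%). At an unadjusted p under 0.05 there were 2 of 40 members, where 8.6% of all genes were. DESeq2 and edgeR on the recovered reads also called no member. The smallest p belonged to Top2a, which read 530, 458, 640 and 550 RPM under IgG and 462, 361, 514 and 346 RPM under antibody, with overlap (log2 difference -0.38, SE 0.15, limma adjusted p = 0.52). Tk1 read 62.2, 57.5, 68.9 and 69.4 against 71.5, 94.9, 72.2 and 93.9 RPM, without overlap (0.35, SE 0.14, adjusted p = 0.52). Gins2, a helicase subunit gene, read 28.9, 30.5, 31.8 and 31.9 against 34.9, 45.8, 34.2 and 36.2 RPM (0.28, SE 0.13, adjusted p = 0.52). Tk1 and Gins2 were the 2 members without overlap, 5.0% of 40, where 2.03% of all genes were higher without overlap.

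Cenpe, a kinetochore motor gene, differed by -0.44 (SE 0.20), Cdc20 by 0.31 (SE 0.14) and Mki67 by -0.45 (SE 0.23), each at a limma adjusted p of 0.52. Ccnb1, Mcm2, Pcna and E2f1 differed by -0.07, -0.02, 0.05 and 0.08, with SEs of 0.13, 0.14, 0.11 and 0.12. The median log2 difference was 0.03 over S-phase and -0.11 over mitotic members, and -0.01 over all genes. Without antibody replicate 4 the mitotic median was -0.0004, and without IgG replicate 1 it was -0.07. The S-phase median was -0.03 without antibody replicate 2 and -0.02 without IgG replicate 1. These differences followed exon length, with a Spearman correlation of -0.512 across the 40 members and -0.460 across all genes with a length. Top2a, Cenpe and Mki67 are among the longest members, with 9013, 8620 and 10061 exon bases. The part of length in the day 6 values was not tested. Skeletal muscle markers summed to 150 to 6284 RPM under IgG and 5.51 to 254 under antibody, and adipocyte markers to 24.4 to 64.2 and 43.0 to 762. Summed keratinocyte markers did not overlap, at 12.7 to 16.7 RPM under IgG and 18.3 to 214 under antibody, and all 6 had a log2 difference above 0. Mammary epithelial markers summed to 186 to 208 and 187 to 535 RPM. None of the genes in these 4 lists passed. Antibody replicate 4, the lowest library for 23 of 40 members, had 10180 RPM of macrophage markers, where the other day 6 libraries had 2577 to 5485. The part of these cells was not tested.

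The 2 knockout comparisons in mice were set against each other by subtracting the day 4 log2 change from that in Rag1-/- hosts, gene by gene, with a test of the difference adjusted over 11247 shared genes. Host, time, transfer between hosts and sequencing table differ together here and cannot be told apart. No member passed, where 2.99% of all genes did. At an unadjusted p under 0.05 there were 9 of 40 members, where 18.7% of all genes were. The difference was below 0 for 34 of 40 members, with medians of -0.22 over S-phase and -0.33 over mitotic members. Over all genes it was above 0 for 5759 of 11247, with a median of 0.01. For 22 members, 15 of them mitotic, the change was below 0 in Rag1-/- hosts and above 0 at day 4. The share of all genes with such signs was not counted. Some of these Rag1-/- changes were small beside their SE, such as Birc5 at -0.02 (SE 0.05). Cdc20 differed by -0.79 (SE 0.24, adjusted p = 0.11), from -0.42 in Rag1-/- hosts to 0.37 at day 4, where its SE was 0.23. Plk1 differed by -0.63 (SE 0.21, adjusted p = 0.15), Mcm6 by -0.38 (SE 0.13, adjusted p = 0.16), Mcm3 by -0.44 (SE 0.16, adjusted p = 0.19) and Ccnb2 by -0.55 (SE 0.22, adjusted p = 0.22). Without day 4 wild-type replicate 4 alone the medians were -0.11 and -0.17, and without day 4 knockout replicate 3 alone they were -0.14 and -0.23. Without day 4 knockout replicates 3 and 5 together they were -0.11 and -0.17.

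**Figure D5:**
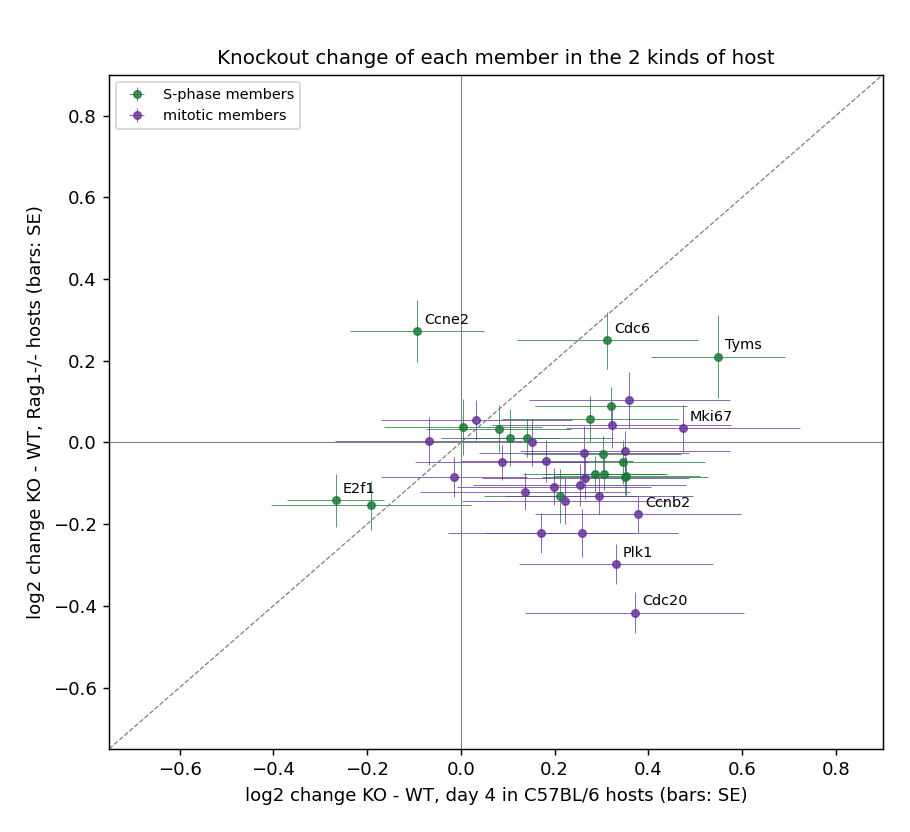
Log2 change of each member in Rag1-/- hosts (vertical axis) against that at day 4 in C57BL/6 hosts (horizontal axis), with SEs as bars and the line of equal change dashed; S-phase members are green and mitotic members purple. Points below the dashed line, 34 of 40, had the lower change in Rag1-/- hosts, and horizontal bars are the longer ones.

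Among the genes around the cycle, 2 of the 13 CDK inhibitor and antiproliferative genes tested passed this test of the difference. Cdkn1a, higher by 0.39 in Rag1-/- knockout tumours, was at 368, 419, 486 and 469 RPM in day 4 wild-type tumours and 332, 273, 285, 366 and 480 RPM in knockout tumours, a log2 difference of -0.41 (SE 0.18, limma adjusted p = 0.33). The 2 changes differed by 0.80 (SE 0.19, adjusted p = 0.045). Tob1, an antiproliferative gene, differed by 0.24 in Rag1-/- hosts and -0.53 at day 4, neither passing alone, a difference of 0.77 (SE 0.20, adjusted p = 0.049). Both stood close to the threshold, and leaving out single libraries put the adjusted p between 0.0053 and 0.14 for Cdkn1a and between 0.023 and 0.16 for Tob1.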

How the data were processed

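Libraries were made with the TruSeq stranded mRNA kit, per the labels' protocols, and CASAVA, TopHat, DESeq2 and the mm10 build are named in the submitters' processing notes, with no versions. The authors deposited 4 tables of normalized counts, a signal that is a read count divided by 1 factor per library. They also deposited adjusted p-values. All values came out as whole reads (tolerance 0.01), giving depth and RPM. The 22 columns of means, folds and unadjusted p-values were not used. RPKM and the length correlations used the union of annotated exons of each gene in GENCODE M21 (GRCm38).

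Each table was fitted with limma 3.58.1 in R 4.3.3 (trend) on log2(value + 1), keeping genes whose table mean reached 10. p-values are two-sided, adjusted by Benjamini-Hochberg over all genes and called under 0.05. Fold changes on this scale understate low genes. The difference between hosts used the 2 fits' errors with Satterthwaite degrees of freedom. The fit was tested on simulated data. Alternatives included edgeR 4.0.16 and DESeq2 1.42.0 on the recovered reads.

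The members, lists and tests were chosen with earlier results of these data known. Named genes were Ddr1, up to 12 members called per table (at least 5 by smallest p), Mki67, Ccnb1, Mcm2, Pcna and E2f1, up to 4 called genes from each other list, and per length the 3 highest and lowest. Other genes were named after their values were seen: Elovl1 and Ints8 (overlaps), Tyms-ps, Cenpf, Rn45s, Rrm1 and, outside culture, Birc5.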

Additional observations from a re-analysis of the deposited data

Results flagged for a closer look

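In groups of 4 or 5 libraries, a named gene's normalized count or a phase mean stood apart when its gap to the nearest library was most of the group's range (Dixon's 95% critical value). Of 120 groups of values examined, 10 did so, and chance alone sets apart about 1 in 20. In Rag1-/- wild-type replicate 5, E2f1 was the lowest at 1318 (next 1597), Myc the lowest at 14772 (next 17260) and Ccng1 the highest at 1710.5 (next 1500.6). In Rag1-/- knockout replicate 3, Cdc6 was the lowest at 526.7 (next 589.3) and Dut the highest at 1937 (next 1625), and in knockout replicate 1 E2f4 was the highest at 3788 (next 3418). At day 4, Mcm2 was the highest in wild-type replicate 2 at 3299 (next 2538), and Ddr1 the highest in knockout replicate 5 at 1181 (next 728.4), the tumour with the most skeletal muscle marker RNA. At day 6 under antibody, Pcna was the highest in replicate 2 at 4251 (next 3586), and the mitotic mean was the lowest in replicate 4, at 11.315 on the log2 scale (next 11.629).

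The knockout change differed between Rag1-/- hosts and day 4 for Cdkn1a, by 0.8034 on the log2 scale (adjusted p = 0.045), and for Tob1, by 0.7685 (adjusted p = 0.049). No member of the list passed that test.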

How the results depend on the processing

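The number of members called stayed within 1.5 times its value under the alternatives run, apart from DESeq2 on recovered reads, which called 4 in culture and 1 at day 4 where limma called 0, and culture without 1 library. Leaving out single libraries gave 0 to 6 members in culture, the 6 without the parental line, and 6 to 9 in Rag1-/- hosts. It gave 0 at day 4, at day 6 and for the difference between hosts. The S-phase minus mitotic difference moved by less than 1 SD in each alternative; without single libraries it ran from 0.12 to 0.28 (culture), 0.08 to 0.12 (Rag1-/- hosts), -0.12 to 0.05 (day 4) and 0.09 to 0.17 (day 6).

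Some small log2 differences changed sign without passing. In culture, upper-quartile rescaling and quantile normalization gave -0.0175 and -0.009 for Ccnb1, -0.0102 and -0.0191 for Mcm2, and -0.0164 and -0.0228 for Pcna, and edgeR and DESeq2 gave -0.0061 and -0.005 for Pcna. At day 6 they gave 0.0146 and 0.0123 for Mcm2 under the same 2 scalings. Without single libraries the ranges were -0.1161 to 0.132 (Ccnb1), -0.1055 to 0.1128 (Pcna) and -0.0726 to 0.0041 (E2f1) in culture, -0.022 to 0.0652 (Pcna) in Rag1-/- hosts, and -0.1458 to 0.0058 (Ccnb1), -0.1022 to 0.0943 (Mcm2) and -0.0155 to 0.0831 (Pcna) at day 6. The cause was not tested.

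Replicate numbers did not pair the libraries throughout: correlations of same-numbered libraries spanned -0.204 to 0.146 (Rag1-/- hosts), -0.174 to 0.144 (day 4) and -0.198 to 0.446 (day 6). IgG replicates 1 (0.446) and 4 (0.346) at day 6 each correlated best with the antibody library of the same number. The same held for wild-type replicate 2 in Rag1-/- hosts (0.146). With the replicate number as a block, 7 members were called in Rag1-/- hosts, and 0 at day 4, at day 6 and between hosts. That block raised the genes at an unadjusted limma p under 0.05 at day 6 from 1218 to 2017 of 14155. Leaving out 2 day 4 libraries was chosen after seeing the data. Without them the knockout table called 524 genes, 413 higher and 111 lower, and still 0 members. Intervals cover the spread between libraries only, and in the simulations on day 4 and day 6 most 1.5-fold changes were not recovered.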
